A study of Homo sapiens with 16 samples.

Results

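The genes described here are the SCAN domain zinc finger genes named ZSCAN or ZKSCAN: every gene of the count table whose symbol is ZSCAN followed by a number and at most 1 letter, or ZKSCAN followed by a number. The rule used symbols and no measured value, and it took 28 of 42351 genes. Of these, 22 passed the filter on low counts and were tested. RNA was measured in A549, a lung adenocarcinoma line that the labels give as wt MET, and in NCI-H596, a lung adenosquamous carcinoma line carrying MET∆14, the receptor that lacks the juxtamembrane segment encoded by exon 14. Both lines were kept without serum and then given hepatocyte growth factor (HGF), the ligand of MET, for 3, 6 or 12 h, with untreated cells at 0 h. Each of the 8 conditions had 2 libraries, 16 in all. The labels state 12 h without serum, the study's methods a longer time, and while the text of the study introduces EKVX, another lung adenocarcinoma line, as its wt MET cells, it does not name the line sequenced. Each MET status is a single cell line, so line and MET status cannot be told apart. Because 0 h was the only untreated time, an effect of HGF and an effect of time cannot be told apart either.

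SCAN domain proteins carry a leucine-rich segment through which they pair with themselves or with each other, and a row of C2H2 zinc fingers that bind DNA. The domain descends from the capsid part of a retrotransposon gag protein. Members named ZKSCAN also hold a KRAB domain. In many zinc finger proteins this domain recruits the co-repressor TRIM28 and, through it, the histone methyltransferase SETDB1 and HP1 proteins. Whether it does so in these members was not tested. Most members are little studied transcription factors, many of them encoded in clusters.

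Between 10158590 and 23909304 reads were counted per library. The 2 libraries of MET∆14 at 12 h differed most from each other, with a chi-square per degree of freedom of 26.9 against 2.36 to 7.74 for the other 7 pairs. The study calls its replicates biological duplicates and does not say what was separate between them, so p-values measure the spread between these libraries. The squamous markers and the genes deleted in A549 went with the labels of the lines. Summed squamous markers (KRT5, KRT6A, KRT14, TP63 and DSG3) were at 2348 to 3336 CPM (reads per library brought to a common total with TMM factors) in NCI-H596 and at 0.97 to 3.1 CPM in A549. CDKN2A and MTAP, genes known to be deleted in A549, summed to 0.334 to 1.55 CPM in A549 and to 197 to 283 CPM in NCI-H596. Summed epithelial markers were at 1737 to 3227 CPM over both lines, summed fibroblast markers at 11.2 to 34.0 CPM, summed leukocyte markers at 41.0 to 157 CPM and summed endothelial markers at 0.404 to 3.22 CPM. In A549 most of the epithelial sum was KRT18, at 1213 to 1523 CPM, and KRT8, at 493 to 991 CPM. There EPCAM was at 0.868 to 2.97 CPM, CDH1 at 2.54 to 12.6 and KRT19 at 26.7 to 53.1. In NCI-H596 these were at 24.4 to 37.4, 80.7 to 125 and 931 to 1754 CPM. Most of the fibroblast and leukocyte sums came from 3 genes. COL1A1 was at 10.8 to 33.3 CPM, CD68 at 34.3 to 154 CPM and ITGAM at 0.742 to 12.2 CPM over all libraries. DCN, PTPRC and CD3E had 0 counts in every A549 library and at most 2 counts in any NCI-H596 library.

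Of the 28 genes, 9 lie on chromosome 6, 7 on chromosome 19, 4 on chromosome 7, 3 on chromosome 16, 2 on chromosome 15 and 1 each on chromosomes 1, 3 and 18. Levels were compared between genes only per length, as CPM per kb of the longest annotated transcript, with the median over the 8 libraries of a line. In wt MET cells, ZKSCAN1 was highest with 34.6 CPM per kb, followed by ZSCAN21 with 18.0, ZSCAN9 with 14.8, ZKSCAN5 with 11.6 and ZKSCAN8 with 10.7. ZKSCAN1 ranged from 28.9 to 38.4 CPM per kb and did not overlap ZSCAN21, which ranged from 13.9 to 19.2. ZSCAN21 and ZSCAN9, with a range of 9.5 to 16.2, did overlap. In MET∆14 cells, ZKSCAN1 was again first with 8.61 CPM per kb, followed by ZSCAN9 with 7.85, ZKSCAN8 with 6.58, ZSCAN29 with 6.4 and ZSCAN32 with 6.2. The ranges of genes next to each other in this order overlapped. ZKSCAN1, with a range of 7.10 to 11.5, lay above ZSCAN32, with a range of 5.47 to 6.94. That order pools times. At 0 h ZSCAN31 came next after ZKSCAN1 in MET∆14, with means of 9.58 and 11.1 CPM per kb, and at 3 h ZSCAN9, with 8.49, was above ZKSCAN1, with 7.19. ZSCAN21 came second in wt MET cells and was at rank 11 in MET∆14 cells, with 2.59 CPM per kb.

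The 6 genes that did not pass the filter were at or near 0. ZSCAN1 and ZSCAN23 had 0 counts in every library, and a count of 0 allows up to 3 counts, at most 0.278 CPM in the shallowest library. The highest counts were 4 for ZSCAN4, which is known for its bursts in mouse embryonic stem cells, 3 for ZSCAN10, a factor of pluripotent cells, 2 for ZSCAN5B and 1 for ZSCAN5C. ZKSCAN7 passed only through MET∆14, where it had 4 to 19 counts per library, against 0 counts in all 8 wt MET libraries. Its wt MET values therefore carry no change. In bulk libraries, fewer cells holding a transcript and less transcript per cell cannot be told apart.

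After HGF, the called genes went up in wt MET cells and down in MET∆14 cells in the fit over all 16 libraries. A gene was called where its adjusted p (edgeR's quasi-likelihood test, Benjamini-Hochberg adjustment over 15067 genes) was below 0.05. In wt MET cells, 6 of 22 genes were higher at 3 h (10.3% of all genes tested were higher) and 0 were lower (7.16% of all). At 6 h, 5 were higher (16.4% of all) and 0 lower (17.8% of all). At 12 h, 5 were higher (16.9% of all) and 0 lower (18.2% of all). At an unadjusted p below 0.05 in edgeR, 1, 2 and 1 genes were lower (ZSCAN16 at 3 h, ZSCAN18 and ZSCAN30 at 6 h, ZSCAN18 at 12 h), and DESeq2 called 0, 1 and 0 lower (ZSCAN30 at 6 h). ZSCAN30 was also called lower at 6 h without a filter, in wt MET alone and without either replicate of MET∆14 at 12 h, and at 3 h without replicate 1 of that pair. ZSCAN18 was called lower at 6 h without either replicate of MET∆14 at 12 h and at 12 h without replicate 2, and ZSCAN29 at 12 h when the second wt MET library of 0 h was left out. With MET∆14, 9 of 22 were lower at 3 h (16.1% of all) and 0 higher (15.5% of all). At 6 h, 7 were lower (22.5% of all) and 0 higher (21.6% of all), and at 12 h, 4 were lower (20.1% of all) and 0 higher (18.3% of all). Unadjusted, 1, 0 and 1 were higher at the 3 times (ZSCAN29 at 3 h, ZKSCAN4 at 12 h), and DESeq2 called 0, 0 and 0 higher. ZSCAN29 was called higher at 3 h with DESeq2's size factors in place of TMM, in MET∆14 alone, and without either replicate of wt MET at 0 h or of MET∆14 at 12 h. Without replicate 2 of MET∆14 at 12 h, 3 genes were called higher at 12 h (ZKSCAN8, ZSCAN9 and ZSCAN29) and 2 lower. The share that fell in MET∆14 was 40.9% at 3 h and 18.2% at 12 h, the latter below the background, and the share that rose in wt MET at 6 and 12 h was 22.7%. Shares over all genes in the fits with a library left out are not given here. The counts of called genes in both directions depended on single libraries. In wt MET they were 2 at 3 h and 1 at 12 h without replicate 1 of 0 h, 0 at 12 h without replicate 1 of that time, and 9 and 10 at 6 h and 8 and 9 at 12 h without replicate 1 or 2 of MET∆14 at 12 h. In MET∆14 they were 5 at 3 h without either library of that time, 4 at 6 h without replicate 2 of that time and 9 at 12 h without replicate 1 of that time. Medians over the 22 genes were 0.15, 0.17 and 0.15 (log2 fold change against 0 h at 3, 6 and 12 h) in wt MET cells (0.16, 0.20 and 0.17 without ZKSCAN7), beside -0.04, -0.05 and -0.00 over all genes. The MET∆14 medians were -0.46, -0.26 and -0.15, beside -0.05, -0.04 and -0.02. Each line was compared with its own 0 h libraries. Marker genes moved over time too: of the 5 epithelial markers, 0 were higher and 4 lower in wt MET at 6 and at 12 h, and of the 5 squamous markers, 1 was higher and 2 lower in MET∆14 at each time. Their part in these results was not tested.

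**Figure D1:**
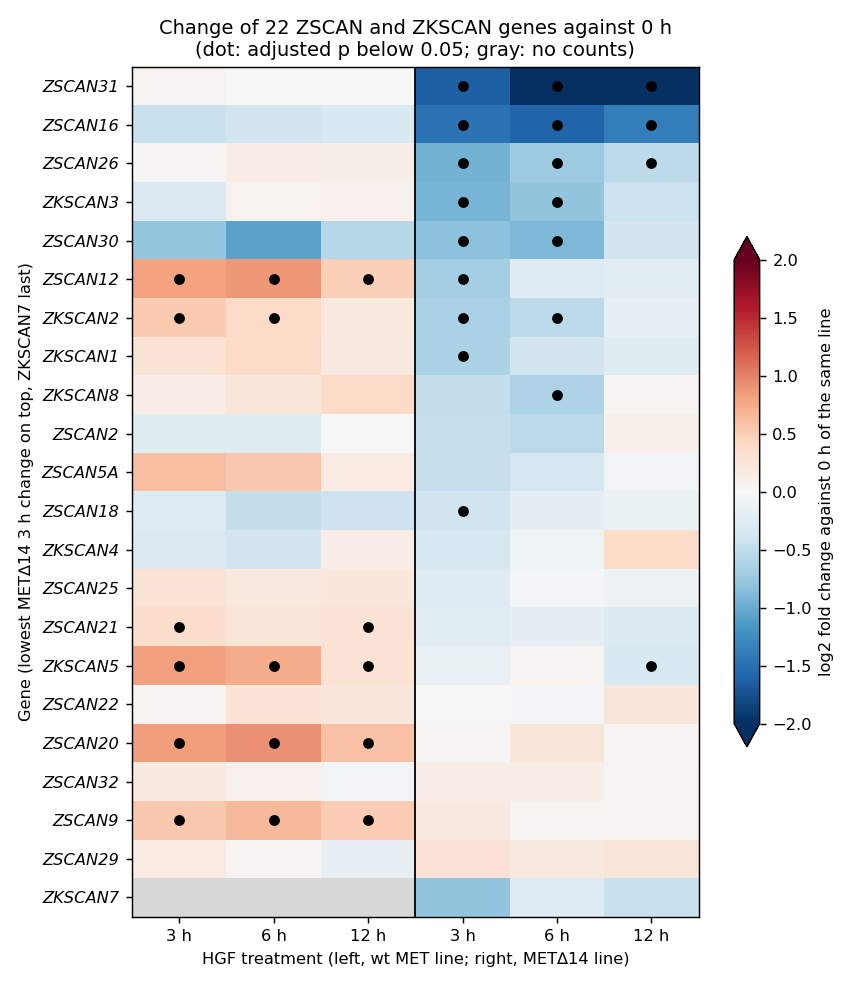
Log2 fold change against 0 h of the same line for the 22 tested genes (rows) at 3, 6 and 12 h of HGF (columns, wt MET left, MET∆14 right). Red is higher and blue lower, a dot marks an adjusted p below 0.05, colours end at an absolute value of 2 and gray marks ZKSCAN7 without counts in wt MET. Dots fall on red cells in wt MET and on blue cells in MET∆14.

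By the F test over the 3 times, 5 genes changed at some time in wt MET cells (40.3% of all genes did) and 12 in MET∆14 cells (54.1% of all). These were ZKSCAN2, ZKSCAN5, ZSCAN9, ZSCAN12 and ZSCAN20 in wt MET, and ZKSCAN1, ZKSCAN2, ZKSCAN3, ZKSCAN4, ZKSCAN5, ZKSCAN8, ZSCAN2, ZSCAN12, ZSCAN16, ZSCAN26, ZSCAN30 and ZSCAN31 in MET∆14. The response itself differed between the lines for 8 of 22 genes, 36.4%, while 37.6% of all genes had such a difference, so their number was close to the background. Without replicate 1 or 2 of MET∆14 at 12 h, more of the 22 genes had such a difference and more changed at some time in wt MET. Without replicate 1 of MET∆14 at 0 h, fewer changed at some time in MET∆14. Shares over all genes in these fits are not given here, so their counts cannot be set beside the background. In the main fit the direction of the responses was one-sided. Leaving out ZKSCAN7, the 3 h response was lower in MET∆14 than in wt MET for 20 of 21 genes, ZSCAN29 being the other, where 49.4% of all genes had a lower response. At 6 h it was lower for 16 of 21 genes (47.5% of all genes) and at 12 h for 14 of 21 (49.3% of all). Members of a family are not independent replicates, and these counts are a description.

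**Figure D2:**
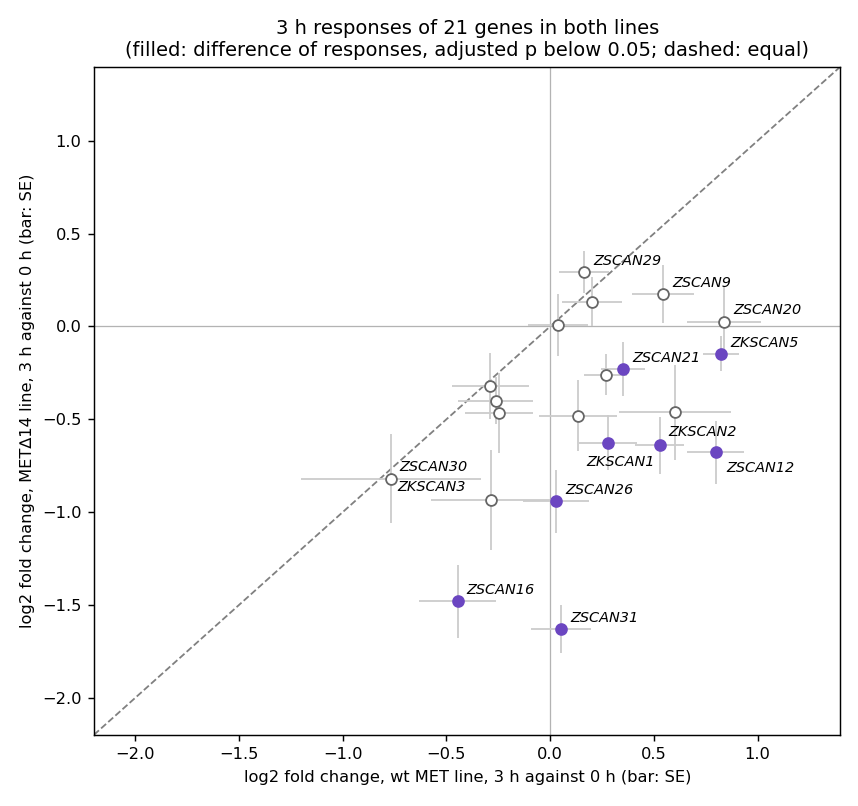
Log2 fold change at 3 h of HGF in wt MET (horizontal) and in MET∆14 (vertical) for 21 genes, with bars of 1 SE. Filled points are the 8 genes whose response differed between the lines over the 3 times, and 20 of the 21 points lie below the dashed line of equal response.

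ZSCAN31 changed most. It is a SCAN zinc finger gene on chromosome 6 with little known function. RefSeq gives it several starts (GRCh38.p14, minus strand), and the 300-base windows around 2 of them are shown because this gene carried the largest fitted change after HGF. The upper window is chr6:28356222-28356521 and the lower chr6:28336099-28336398. Each runs 5′ to 3′, and capitals mark TTCNNNGAA, the palindrome that STAT factors are known to bind, which starts at -70 from the start site in the lower window and is absent from the upper.
ZSCAN31, upper window: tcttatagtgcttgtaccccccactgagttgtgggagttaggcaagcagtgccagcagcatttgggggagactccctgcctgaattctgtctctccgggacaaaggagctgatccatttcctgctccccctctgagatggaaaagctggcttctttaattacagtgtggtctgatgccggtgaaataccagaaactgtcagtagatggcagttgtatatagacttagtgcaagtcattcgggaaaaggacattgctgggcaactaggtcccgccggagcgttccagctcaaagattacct
ZSCAN31, lower window: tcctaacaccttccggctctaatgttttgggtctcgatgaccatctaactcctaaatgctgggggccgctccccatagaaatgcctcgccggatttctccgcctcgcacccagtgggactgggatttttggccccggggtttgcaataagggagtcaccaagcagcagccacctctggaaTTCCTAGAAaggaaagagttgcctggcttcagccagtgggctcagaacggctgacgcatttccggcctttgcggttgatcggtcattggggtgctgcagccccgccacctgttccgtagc

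In wt MET cells, ZSCAN31 was at 9.98 and 8.91 CPM at 0 h, 9.68 and 9.94 at 3 h, 9.62 and 9.35 at 6 h, and 9.1 and 9.89 at 12 h. The MET∆14 libraries were at 33.6 and 34.5 CPM at 0 h, 9.93 and 11.9 at 3 h, 4.57 and 3.47 at 6 h, and 2.63 and 2.78 at 12 h. The wt MET libraries overlapped at every time, whereas the MET∆14 libraries of each time lay below all those of the time before. Before HGF the gene was higher in MET∆14, and at 6 and 12 h both MET∆14 libraries were below every wt MET library. In MET∆14 the log2 fold change was -1.63 ± 0.13 (SE, n = 2 per time) at 3 h, -3.11 ± 0.14 at 6 h (adjusted p = 1.73e-09) and -3.66 ± 0.16 at 12 h (adjusted p = 2.66e-09). In wt MET it was 0.05 ± 0.14 at 3 h and 0.01 ± 0.14 at 6 h. The responses differed by -3.12 ± 0.20 at 6 h (adjusted p = 9.93e-08), and the value stayed between -3.33 and -2.93 over 22 other settings. Of its annotated exon bases, 10.8% overlap a lncRNA on the opposite strand, and use of strand in the counting is not given in the sources used here.

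ZSCAN16 and ZSCAN26, on chromosome 6 as well, also fell in MET∆14 at all 3 times. The 12 h call of ZSCAN26 was lost in MET∆14 alone and when the first 0 h or the second 12 h library of MET∆14 was left out. ZSCAN26 was first described as a protein that binds the serum response element of FOS. ZSCAN16 was, in MET∆14 cells, at 6 and 5.27 CPM at 0 h, 2.04 and 1.98 at 3 h, 1.8 and 1.89 at 6 h, and 2.3 and 1.95 at 12 h. In wt MET cells it was at 5.14 and 5.3, 4.01 and 3.64, 4.06 and 3.9, and 3.86 and 4.64 CPM at the same times. The lines overlapped before HGF, and afterwards every MET∆14 library was below every wt MET library. The log2 fold change in MET∆14 was -1.60 ± 0.19 at 6 h (adjusted p = 1.00e-05), and in wt MET -0.39 ± 0.18 (adjusted p = 0.116). The responses differed by -1.21 ± 0.27 at 6 h (adjusted p = 0.00301). Annotated lncRNAs overlap 13.0% of ZSCAN16 exon bases on the opposite strand and 11.9% on the same strand, so its counts are uncertain.

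ZSCAN26 was at 18.8 and 16.7 CPM at 0 h in MET∆14 cells, then at 8.22 and 10.1 at 3 h, 11.5 and 10.2 at 6 h, and 14.6 and 9.55 at 12 h. In wt MET cells it was at 19.4 and 22.1, 20.8 and 21.6, 21.4 and 24.2, and 23.1 and 21.7 CPM. All treated MET∆14 libraries lay below both at 0 h, and the wt MET times overlapped 0 h. At 3 h the log2 fold change in MET∆14 was -0.94 ± 0.17 (adjusted p = 0.000599), and the responses differed by -0.97 ± 0.23 (adjusted p = 0.00904). A protein-coding gene that had at most 2 counts in any library overlaps 10.1% of its exon bases on the same strand.

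Of the KRAB-bearing genes of the same region, ZKSCAN3 was lower in MET∆14 at 3 and 6 h and ZKSCAN8 at 6 h alone. ZKSCAN3, known as a repressor of autophagy and lysosome genes, had a mean of 4.96 ± 0.288 CPM (SD, n = 2) at 0 h in MET∆14 cells and a log2 fold change of -0.93 ± 0.27 at 3 h (adjusted p = 0.015). That call was lost without replicate 1 or replicate 2 of MET∆14 at 3 h (adjusted p = 0.0824 and 0.0697) and without replicate 2 of MET∆14 at 0 h (adjusted p = 0.0864). At 6 h it was at -0.80 ± 0.26 (adjusted p = 0.0213), a call lost with DESeq2 and when either 0 h library or the second 6 h library of MET∆14 was left out. The difference of its responses did not pass (F test, adjusted p = 0.283). ZKSCAN8, with 64.3 ± 2.51 CPM (SD, n = 2) at 0 h in MET∆14 cells, was at -0.62 ± 0.19 at 6 h (adjusted p = 0.0162). Without replicate 2 of MET∆14 at 0 h or at 6 h, its adjusted p was 0.071 and 0.0996, and in a fit of MET∆14 alone 0.0503. ZKSCAN4, with 6.37 ± 0.913 CPM in wt MET and 7.28 ± 0.244 CPM in MET∆14 (SD, n = 2) at 0 h, passed the F test over the 3 times in MET∆14 (adjusted p = 0.0207) and no single time, with 0.37 ± 0.17 at 12 h (adjusted p = 0.0942).

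ZSCAN30, on chromosome 18, fell in MET∆14, with a log2 fold change of -0.89 ± 0.24 at 6 h (adjusted p = 0.00659). Without replicate 2 of MET∆14 at 6 h its adjusted p was 0.0842. In wt MET cells, where it was at 2.6 and 2.26 CPM at 0 h, the log2 fold change was -1.08 ± 0.44 at 6 h (adjusted p = 0.0728), and the lines did not differ detectably in response (F test, adjusted p = 0.979). ZSCAN18 was lower in MET∆14 at 3 h, at -0.40 ± 0.13 (adjusted p = 0.026), a call lost with DESeq2, in MET∆14 alone and when the second 0 h library or either 3 h library of MET∆14 was left out, and it missed the F test over the 3 times (adjusted p = 0.0791). ZSCAN2, with 13.2 ± 0.772 CPM in wt MET and 3.52 ± 0.553 CPM in MET∆14 (SD, n = 2) at 0 h, passed that F test (adjusted p = 0.0412) with -0.54 ± 0.21 at 6 h, which did not pass alone (adjusted p = 0.0537). Exons of other genes overlap 25.6% of ZSCAN18 (ZNF135, opposite strand) and 27.7% of ZSCAN2 exon bases.

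ZSCAN12, ZKSCAN2 and ZKSCAN5 were called higher in wt MET and lower in MET∆14, ZKSCAN5 in MET∆14 at 12 h alone. Of the windows around their RefSeq starts, 1 each of ZSCAN12 (chr6:28383390-28383689, minus strand) and ZKSCAN5 (chr7:99504412-99504711, plus strand) is shown, 5′ to 3′, because after ZSCAN31 these genes had the smallest adjusted p for a difference in response and the windows hold several of the motifs searched. In ZSCAN12 the capitals mark GGGCGG, the GC box bound by SP factors, and CACGTG, an E-box, which do not overlap. In ZKSCAN5 they mark 2 GC boxes, read on the other strand as CCGCCC, and TTCNNNGAA at -10 from the start. Windows not shown, chr6:28399698-28399997 of ZSCAN12 and chr7:99505755-99506054 of ZKSCAN5, hold none of the motifs searched.
ZSCAN12: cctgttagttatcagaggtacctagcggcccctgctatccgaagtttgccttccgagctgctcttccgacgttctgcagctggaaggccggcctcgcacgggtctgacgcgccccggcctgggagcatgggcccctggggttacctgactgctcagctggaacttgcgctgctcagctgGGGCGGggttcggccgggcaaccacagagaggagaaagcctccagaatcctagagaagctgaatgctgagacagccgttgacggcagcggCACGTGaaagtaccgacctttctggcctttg
ZKSCAN5: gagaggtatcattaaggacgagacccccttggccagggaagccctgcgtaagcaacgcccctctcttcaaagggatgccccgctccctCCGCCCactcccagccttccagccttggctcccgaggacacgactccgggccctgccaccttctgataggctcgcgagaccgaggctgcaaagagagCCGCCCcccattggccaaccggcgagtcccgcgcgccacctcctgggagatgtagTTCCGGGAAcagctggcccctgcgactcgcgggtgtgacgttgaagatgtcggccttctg

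ZSCAN12 was at 15.3 and 13.5 CPM at 0 h in wt MET cells, then at 24.8 and 25.4 at 3 h, 27.2 and 25.6 at 6 h, and 21.2 and 18.8 at 12 h. In MET∆14 cells it was at 7.95 and 6.76 CPM, then at 3.99 and 5.04, 6.29 and 5.96, and 6.95 and 5.28. All treated libraries were above 0 h in wt MET, and in MET∆14 those of 3 and 6 h were below it. The log2 fold change in wt MET was 0.87 ± 0.14 at 6 h (adjusted p = 0.000186). In MET∆14 it was -0.68 ± 0.17 at 3 h (adjusted p = 0.00659), a call lost without replicate 1 of MET∆14 at 0 h (adjusted p = 0.0647) or replicate 1 of MET∆14 at 3 h (adjusted p = 0.077). The responses differed by -1.48 ± 0.22 at 3 h (adjusted p = 0.000267), with values between -1.70 and -1.35 over 22 other settings.

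ZKSCAN5 was at 42.7 and 47.6 CPM at 0 h in wt MET cells, then at 79.7 and 80.3 at 3 h, 78.1 and 73 at 6 h, and 57.3 and 53.6 at 12 h. The MET∆14 libraries stood at 26 and 28.8 CPM, then at 25.2 and 24.4, 28.7 and 28.7, and 23.2 and 21.3. The rise in wt MET was highest at 3 h, while in MET∆14 only the 12 h libraries were called lower. In wt MET the log2 fold change was 0.82 ± 0.09 at 3 h (adjusted p = 1.38e-05). In MET∆14 it was -0.30 ± 0.10 at 12 h (adjusted p = 0.0223), and that call was lost without replicate 2 of MET∆14 at 12 h (adjusted p = 0.0534) or at 0 h (adjusted p = 0.187), with DESeq2, without a filter and in MET∆14 alone. At 3 and 6 h the MET∆14 values were -0.15 and 0.06 (adjusted p = 0.259 and 0.622). The responses differed by -0.97 ± 0.13 at 3 h (adjusted p = 0.000106).

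ZKSCAN2, which besides its KRAB and SCAN domains holds a Myb/SANT-like segment, was at 31.8 and 39 CPM at 0 h in wt MET cells, then at 50.1 and 52.1 at 3 h, 46.5 and 45.5 at 6 h, and 42.8 and 38.6 at 12 h. Its MET∆14 values were 9.26 and 9.34 CPM, then at 6.76 and 5.32, 6.29 and 6.6, and 9.03 and 7.32. At 3 and 6 h, both treated libraries were above 0 h in wt MET and below it in MET∆14. The log2 fold changes at 3 h were 0.53 ± 0.12 in wt MET (adjusted p = 0.00583) and -0.64 ± 0.16 in MET∆14 (adjusted p = 0.00536). The first was lost without replicate 1 of wt MET at 0 h (adjusted p = 0.0814) and the second without replicate 2 of MET∆14 at 3 h (adjusted p = 0.103). The difference of the responses was -1.17 ± 0.20 at 3 h (adjusted p = 0.000733), between -1.35 and -1.01 over 22 other settings.

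ZKSCAN1, the most abundant member and the source of a known circular RNA, was at 272 and 277 CPM at 0 h in wt MET cells, then at 331 and 334 at 3 h, 351 and 361 at 6 h, and 319 and 305 at 12 h. Its MET∆14 libraries were at 108 and 101 CPM, then at 67.4 and 67.9, 78.4 and 83.5, and 109 and 66.7. The 12 h libraries of MET∆14 were on either side of 0 h. In MET∆14 the log2 fold change was -0.63 ± 0.15 at 3 h (adjusted p = 0.0046). In wt MET it was 0.38 ± 0.14 at 6 h (adjusted p = 0.0524). The responses differed by -0.91 ± 0.20 at 3 h (adjusted p = 0.00652). ZSCAN21, the human counterpart of a mouse gene studied in cerebellar granule neurons, was at 29.9 ± 2.85 CPM (SD, n = 2) at 0 h in wt MET and at 6.02 ± 0.404 CPM in MET∆14. In wt MET its log2 fold change was 0.35 ± 0.11 at 3 h (adjusted p = 0.0313), a call lost with the replicate block and when the first 0 h library or either 3 h library of wt MET was left out. It had responses that differed by -0.56 ± 0.18 at 12 h (adjusted p = 0.034; F test over the 3 times, adjusted p = 0.0482). The 12 h call was lost in 12 of 22 other settings, for example without replicate 2 of MET∆14 at 0 h (adjusted p = 0.154). Of its exon bases, 41.1% overlap ZNF3 on the opposite strand, so reads of the 2 genes cannot be told apart if strand was not used.

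**Figure D3:**
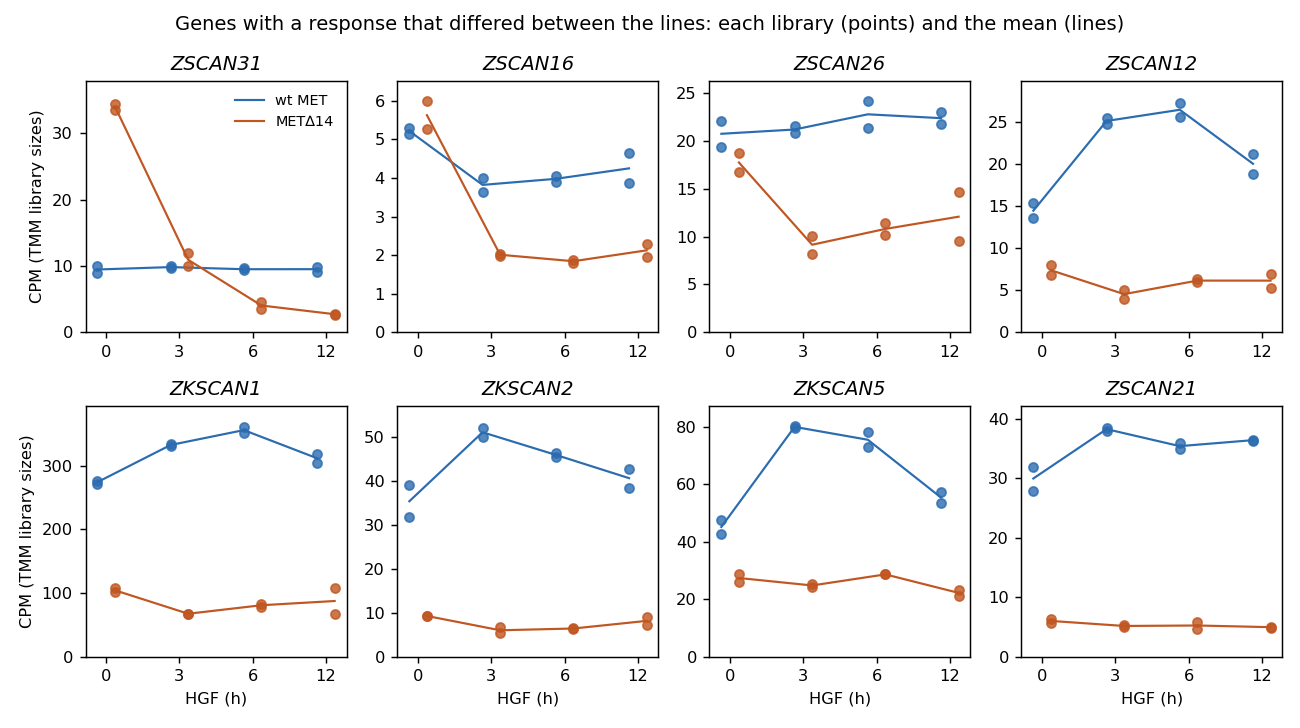
CPM (vertical, from 0) of the 8 genes whose response differed between the lines, against hours of HGF (horizontal, evenly spaced), with a point per library and a line through the mean of 2 libraries. ZSCAN31 drops in MET∆14 from 33.6 and 34.5 to 2.63 and 2.78 CPM and is level in wt MET.

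Among genes called at any time in wt MET and not in MET∆14, ZSCAN20, which also has a Myb/SANT-like segment, had a mean of 8.14 ± 1.08 CPM (SD, n = 2) at 0 h and a log2 fold change of 0.91 ± 0.18 at 6 h (adjusted p = 0.00115). Its wt MET libraries were at 13.7 and 15.5 CPM at 3 h and at 16.8 and 13.8 CPM at 6 h, all above 0 h. In MET∆14 cells the log2 fold change at 6 h was 0.23 ± 0.19 (adjusted p = 0.337). ZSCAN9, with 22.0 ± 2.02 CPM (SD, n = 2) at 0 h, was at 0.66 ± 0.15 in wt MET at 6 h (adjusted p = 0.00342). In MET∆14 it was at 0.06 ± 0.16 (adjusted p = 0.804). The difference between the lines over the 3 times did not pass for either gene (F test, adjusted p = 0.0867 for ZSCAN20 and 0.149 for ZSCAN9), while at single times it passed for ZSCAN20 at 3 h (-0.81 ± 0.26, adjusted p = 0.0462) and for ZSCAN9 at 6 h (-0.60 ± 0.22, adjusted p = 0.0477).

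No F test over the 3 times passed in either line for 8 genes: ZKSCAN7, ZSCAN5A, ZSCAN18, ZSCAN21, ZSCAN22, ZSCAN25, ZSCAN29 and ZSCAN32. ZSCAN25 had 40.7 ± 0.0435 CPM (SD, n = 2) in wt MET and 22.2 ± 1.26 in MET∆14 at 0 h, ZSCAN22 19.1 ± 0.160 and 7.27 ± 1.16, ZSCAN29 29.9 ± 5.54 and 34.3 ± 0.137, ZSCAN32 11.0 ± 1.70 and 18.0 ± 1.39, and ZSCAN5A 2.54 ± 0.0920 and 4.02 ± 0.768. ZSCAN29, which shares the Myb/SANT-like segment of ZSCAN20 and ZKSCAN2, was at 0.29 ± 0.12 in MET∆14 at 3 h (adjusted p = 0.0663). All 6 of its treated MET∆14 libraries lay between 36.7 and 44 CPM, above 34.4 and 34.2 CPM at 0 h. The KRAB-bearing genes, 7 of 7 tested, had median log2 fold changes at 3 h of 0.13 in wt MET and -0.63 in MET∆14, and the 15 tested ZSCAN genes of 0.16 and -0.40, so both kinds showed the same signs. In wt MET, ZKSCAN7 entered as 0.

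Of the 28 genes, 9 lie within 336 kb on chromosome 6 (28107689 to 28443502, hg38), in the extended region of the major histocompatibility complex, among 21 genes of the table. Of the 8 that were tested, 5 were lower in MET∆14 at 3 h: ZKSCAN3, ZSCAN12, ZSCAN16, ZSCAN26 and ZSCAN31. Outside the cluster, 4 of 14 were lower, and of all genes 16.1%. Without replicate 1 of MET∆14 at 3 h, 3 genes of the cluster were lower and 2 outside it, and without replicate 2, 4 and 1. Other genes of the interval with enough counts were PGBD1, itself a SCAN domain gene, and the pseudogene TOB2P1, and 1 of these 2, PGBD1, was lower at 3 h in MET∆14 (log2 fold change -0.67, adjusted p = 0.011). The cluster did not move as a block. ZSCAN9 and ZKSCAN4 lie between ZSCAN16 and ZSCAN26 and were at 0.17 and -0.32 in MET∆14 at 3 h (adjusted p = 0.436 and 0.182). ZSCAN31 and ZKSCAN3 are on opposite strands with overlapping spans, the start of ZKSCAN3 lying at -6.32 kb from that of ZSCAN31, and their exons do not overlap. At 12 h ZSCAN31 was at -3.66 and ZKSCAN3 at -0.43 ± 0.26 (adjusted p = 0.211).

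**Figure D4:**
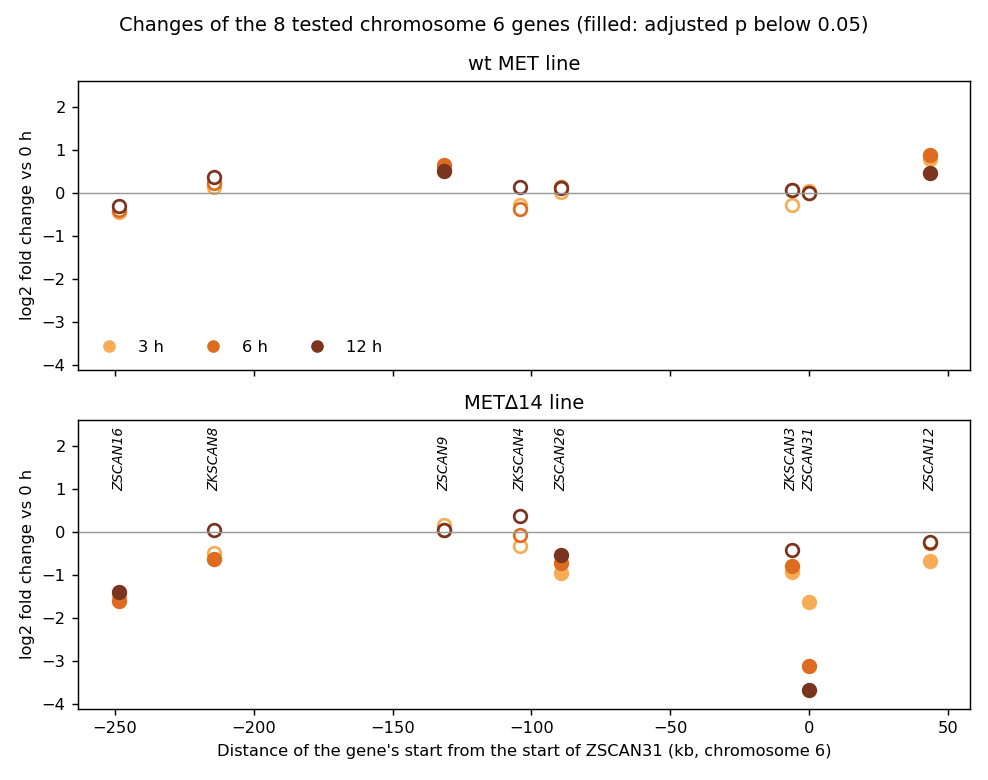
Log2 fold change against 0 h (vertical) of the 8 tested chromosome 6 genes, by distance of the gene's start from that of ZSCAN31 in kb (horizontal), in wt MET (upper panel) and MET∆14 (lower panel). Colours give the time and filled points an adjusted p below 0.05, and the lowest points are ZSCAN31 in MET∆14 at -1.63, -3.11 and -3.66.

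Before HGF the lines differed at 16 of 22 genes, 7 higher in MET∆14 (40.6% of all genes were) and 9 lower (39.6% of all). Of the higher ones, ZKSCAN7 had 0 counts in all wt MET libraries and 0.847 and 0.894 CPM in MET∆14 at 0 h, at least 4.06-fold higher when 3 counts per library are taken as the floor. It was then at 0.57 and 0.453 CPM at 3 h, 0.599 and 0.814 at 6 h, and 0.821 and 0.371 at 12 h. ZSCAN30 was at 2.6 and 2.26 CPM at 0 h in wt MET, then at 1.54 and 1.29, 1.03 and 1.28, and 1.43 and 1.88. In MET∆14 it was at 24.9 and 23.6 CPM, then at 12.8 and 14.6, 14.8 and 11.5, and 24.5 and 11.7. The lines did not overlap at any time, and the 12 h replicates of MET∆14 were far apart. Its log2 difference at 0 h was 3.31 ± 0.30 (adjusted p = 6.92e-08). ZSCAN18, a gene reported to be silenced by promoter methylation in several cancers, was at 5.5 and 5.09 CPM in wt MET, then at 4.74 and 4.04, 4.24 and 3.36, and 3.91 and 4.04. In MET∆14 it was at 25.6 and 28.3 CPM, then at 21.7 and 19.3, 24.4 and 22.9, and 26.9 and 21.9. Every MET∆14 library was above every wt MET library, with a log2 difference of 2.35 ± 0.15 at 0 h (adjusted p = 8.05e-10). ZSCAN31 differed by 1.85 ± 0.13 (adjusted p = 3.63e-09), ZSCAN32 by 0.71 ± 0.14 (adjusted p = 0.000212), ZKSCAN3 by 0.67 ± 0.26 (adjusted p = 0.0289) and ZSCAN5A by 0.65 ± 0.26 (adjusted p = 0.0327). The last 2 calls did not hold in every setting and were lost, among others, with DESeq2 and with the replicate block. With that block the difference at 0 h is taken at the level of the first replicate of each line, which is another comparison. For ZKSCAN3 the adjusted p was 0.247 when the second wt MET library of 0 h was left out and 0.102 when the second MET∆14 library was. For ZSCAN5A it was 0.0788 and 0.1 when the first or the second wt MET library of 0 h was left out, and 0.183 when the first MET∆14 library was.

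The genes lower in MET∆14 before HGF were led by ZSCAN21, at -2.31 ± 0.12 (adjusted p = 9.76e-11), ZKSCAN2 at -1.93 ± 0.13 and ZSCAN2 at -1.92 ± 0.18. ZKSCAN1 was at -1.39 ± 0.15, ZSCAN22 at -1.38 ± 0.15, ZSCAN12 at -0.98 ± 0.15, ZSCAN25 at -0.87 ± 0.11 and ZKSCAN5 at -0.72 ± 0.09, all with adjusted p of 2.05e-05 or lower. ZSCAN9 was at -0.43 ± 0.16 (adjusted p = 0.0196), and its adjusted p was 0.155 without replicate 2 of wt MET, 0.105 without replicate 1 and 0.0576 without replicate 2 of MET∆14 at 0 h. That call was also lost with the replicate block and with at least 10 counts in every library. ZKSCAN2, ZKSCAN5, ZSCAN9 and ZSCAN12, which rose in wt MET after HGF, were thus already higher there before it.

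**Figure D5:**
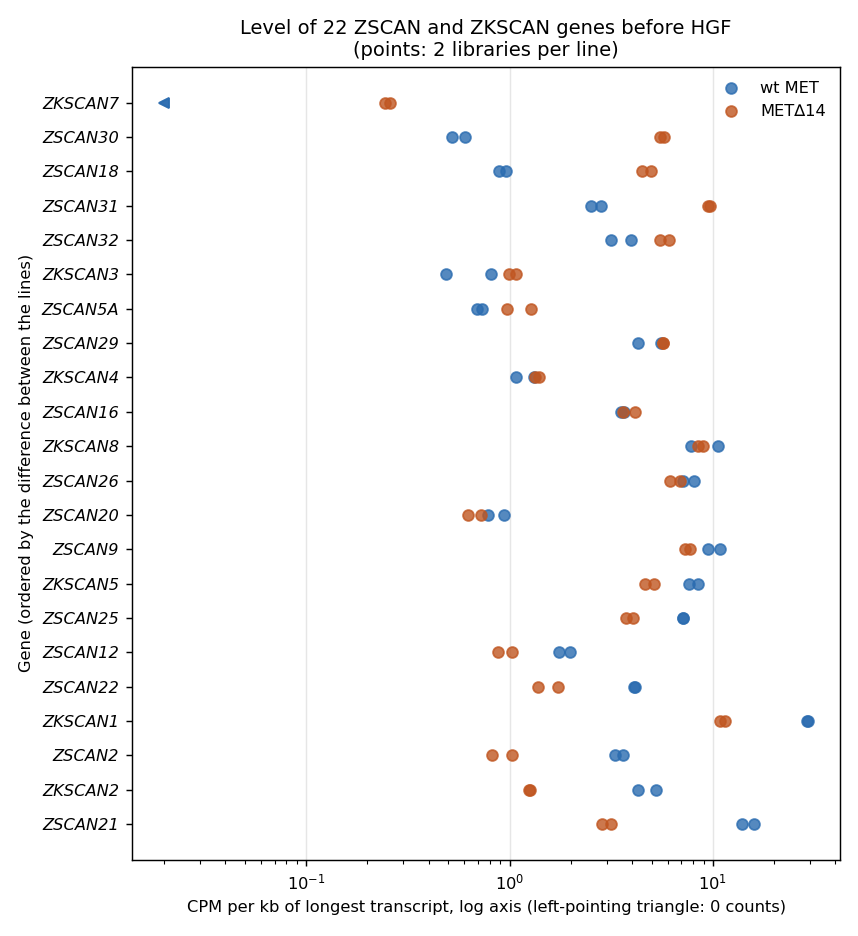
CPM per kb of the longest transcript at 0 h (horizontal, log axis) for the 22 tested genes (vertical, ordered by the difference between the lines), with 2 libraries of wt MET (blue) and 2 of MET∆14 (orange) each. The triangle stands for 0 counts of ZKSCAN7 in wt MET, and ZSCAN30 and ZSCAN18 are next with the MET∆14 points to the right.

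RefSeq promoter windows were found for 24 of the 28 genes, 39 windows of 300 bases, and were searched on both strands for 7 motifs. GGGCGG was in 56.4% of them, against 45.0% of 35116 windows of all genes. TTCNNNGAA was in 15.4% (ZKSCAN5, ZSCAN5A, ZSCAN20, ZSCAN23 and ZSCAN31), against 7.66% of all. TGANTCA, the AP-1 site, was in 10.3% (ZKSCAN1, ZSCAN5A and ZSCAN9), against 7.71%, and CACGTG in 7.69% (ZSCAN12 and ZSCAN18), against 7.26%. GCGNGGGCG, bound by EGR factors and able to overlap GGGCGG, was in 5.13%, against 9.43%, GTAAACA, bound by FOXO factors, in 2.56%, against 3.42%, and TGACGTCA, bound by CREB, in 2.56%, against 1.85%. Of the 5 genes with TTCNNNGAA, ZSCAN20 and ZKSCAN5 rose in wt MET, ZSCAN31 fell in MET∆14, ZSCAN5A passed no test over time and ZSCAN23 had no counts. These are matches of letters. Windows of a gene with several starts can overlap, and the same site is then counted in each of them. This was so for TTCNNNGAA in ZSCAN31, TGANTCA in ZSCAN9, and GGGCGG and CACGTG in ZSCAN12.

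The other genes with a SCAN domain but another name, 28 of 29 tested, moved in both directions. In wt MET cells, 7, 4 and 4 were higher and 5, 5 and 4 lower at 3, 6 and 12 h. Of all genes, 10.3%, 16.4% and 16.9% were higher there and 7.16%, 17.8% and 18.2% lower. In MET∆14 cells, 3, 3 and 2 were higher and 6, 8 and 2 lower, with a median of -0.23 at 3 h. Of all genes, 15.5%, 21.6% and 18.3% were higher in MET∆14 and 16.1%, 22.5% and 20.1% lower. Those with the largest change among the called ones were ZNF483, ZNF396 and ZNF165. ZNF483 had 12 and 16 counts at 0 h and 2 and 2 counts at 6 h in MET∆14 (adjusted p = 0.00231), the latter under the floor of 3 counts. ZNF396 was at mean levels of 1.57 and 0.492 CPM at 0 and 6 h in MET∆14 (log2 fold change -1.70, adjusted p = 0.00818), from 25 to 29 and from 8 to 9 counts. ZNF165 was at 9.3 CPM at 0 h and 3.03 CPM at 3 h in MET∆14 (-1.63, adjusted p = 3.7e-05). The remaining numbered ZNF genes, 433 tested, had medians at 3 h of 0.09 in wt MET and -0.09 in MET∆14, with 79 higher and 36 lower in wt MET and, with MET∆14, 71 higher and 84 lower. At 3 h, 10.3% of all genes were higher and 7.16% lower in wt MET, and 15.5% higher and 16.1% lower in MET∆14.

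Among the 8 genes of the KRAB co-repressor machinery, 1, 2 and 1 were higher and 1, 4 and 3 lower in wt MET at 3, 6 and 12 h (10.3%, 16.4% and 16.9% of all genes were higher, and 7.16%, 17.8% and 18.2% lower). In MET∆14, 0, 1 and 0 were higher and 4, 3 and 1 lower (15.5%, 21.6% and 18.3% of all were higher, and 16.1%, 22.5% and 20.1% lower). The 1 higher gene was TRIM28 at 6 h, named after its values were seen, at 0.37 in MET∆14 (adjusted p = 0.00512) and at -0.35 in wt MET (adjusted p = 0.0106). ATF7IP, the partner that stabilises SETDB1, had mean levels of 97.6 CPM at 0 h and 31.0 CPM at 3 h in MET∆14 (log2 fold change -1.65, adjusted p = 1.03e-07), and of 39.8 and 77.4 CPM at 0 and 6 h in wt MET (0.96, adjusted p = 2.2e-05). CHD3, a NuRD remodeller, was at -0.65 in MET∆14 at 6 h (adjusted p = 0.00124), and CBX3, an HP1 protein, at -0.49 in wt MET at 6 h (adjusted p = 0.000295). The 4 autophagy genes, reported targets of ZKSCAN3, did not move together in MET∆14, where ZKSCAN3 was lower at 3 and 6 h. At 3 and at 6 h, 1 of 4 was higher and 3 lower, beside the shares of all genes given above for MET∆14. At 3 h MAP1LC3B, which encodes an LC3 protein of the autophagosome, was at 0.69 (adjusted p = 0.000486). ULK1, a kinase that starts autophagy, was at -0.72 (adjusted p = 0.00517) and ZFYVE1 at -1.27 (adjusted p = 1.39e-06) at that time. At 6 h ULK1 was at -1.54 in MET∆14 (adjusted p = 9.07e-06) and at 1.39 in wt MET (adjusted p = 1.22e-05). In wt MET, 1, 2 and 2 of the 4 were higher and 1, 1 and 0 lower at 3, 6 and 12 h, beside the shares of all genes given above for wt MET.

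The formula stated for the original test has line and time as additive terms. Fitted in edgeR, this model gave 4 genes with a time effect, which the model takes to be equal in both lines (30.6% of all genes had one). These were ZKSCAN4, ZSCAN16, ZSCAN30 and ZSCAN31, each with a mean time effect below 0. For ZKSCAN4 that mean covers both signs, with -0.30 and -0.22 at 3 and 6 h and 0.26 at 12 h. ZSCAN16 and ZSCAN31 are also among the genes whose response differed between the lines. Without replicate 2 of MET∆14 at 12 h, 2 were called. For ZSCAN31 the model gave -1.90 at 12 h, between 0.00 in wt MET and -3.66 in MET∆14 fitted separately. ZSCAN12, ZKSCAN2 and ZKSCAN5, each called in opposite directions in the lines, were not called by it (adjusted p = 0.68, 0.991 and 0.0575).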

How the data were processed

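PolyA RNA of 16 libraries was sequenced. Per the labels and the study's methods, the authors trimmed adapters and mapped reads with STAR to hg38, and the submitters' processing notes name STAR 2.5.0 and RSEM 1.3.2 without their roles. The authors deposited whole-number counts per gene, without normalization, which may be rounded RSEM estimates. The annotation version and use of strand are not given in the sources used here. Columns that spell A549 differently were matched on the remainder of their names, and 0 columns were without a sample.

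The analysis used edgeR 4.0.16 (R 4.3.3): filterByExpr (minimum count 10, minimum total 15), TMM, and a robust quasi-likelihood fit with 1 coefficient per condition over all 16 libraries. Each time was tested against 0 h of its line, with F tests over the 3 times and over the 3 differences between lines. Benjamini-Hochberg adjustment ran over 15067 genes (threshold 0.05). SEs are on the log2 scale. Floors (3 counts) cover counting error only. The scripts were tested on simulated data.

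The genes, gene lists and motifs were chosen with earlier results of these data known. Every tested gene is named with a level, with the time of the smallest adjusted p in each line where it was called. Values per library are given for genes whose response differed between the lines with an absolute log2 fold change of at least 0.58 at some time, and for the 3 largest differences at 0 h. Genes of other lists are given by counts with at most 3 examples each. Coordinates and exon overlaps come from GENCODE v44 (hg38) and promoter windows from RefSeq. Alternatives were DESeq2 1.42.0, its size factors, 2 other filters, a minimum log2 fold change of 1, a replicate block, each line alone, and each library left out. Figures were drawn with matplotlib.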

Additional observations from a re-analysis of the deposited data

Results flagged for a closer look

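Of the 22 genes tested, 8 had a response to HGF that differed between the lines by the F test over the 3 times. That share, 36.4%, was close to the 37.6% of all genes with such a difference. Adjusted p was 7.75e-08 for ZSCAN31, 0.00025 for ZKSCAN5, 0.00045 for ZSCAN12, 0.00091 for ZKSCAN2, 0.00544 for ZSCAN16, 0.0112 for ZKSCAN1, 0.013 for ZSCAN26 and 0.0482 for ZSCAN21. For ZSCAN31, ZSCAN16 and ZSCAN26 the difference came with a fall in MET∆14 (log2 fold changes at 3 h of -1.63, -1.48 and -0.94) and values of 0.05, -0.45 and 0.03 in wt MET. For ZSCAN12, ZKSCAN2 and ZKSCAN1 the values at 3 h were 0.80, 0.53 and 0.28 in wt MET and -0.68, -0.64 and -0.63 in MET∆14. For ZKSCAN5 and ZSCAN21 they were 0.82 and 0.35 in wt MET and -0.15 and -0.23 in MET∆14. Without replicate 1 or 2 of MET∆14 at 12 h, the pair that differed most, more of the 22 genes had such a difference. The share of all genes in those fits is not given here.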

How the results depend on the processing

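The 41 values of single genes followed across the alternatives kept their sign. Among values not followed, ZKSCAN8 and ZSCAN9 in MET∆14 at 12 h (0.04 and 0.06, not called) were called lower without replicate 1 and higher without replicate 2 of that condition. Over the 41 values and their alternatives, 848 kept their direction and side of the threshold, 65 lost the call and 5 gained it. With a minimum absolute log2 fold change of 1, 0, 0 and 0 genes were called in wt MET at 3, 6 and 12 h and 0 at any time, 2, 2 and 2 in MET∆14 and 2 at any time, 4 with a differing response, 9 at 0 h and 2 in the additive model. With each line alone, 9 and 8 were called in wt MET at 6 and 12 h and 10 at any time, and 2 in MET∆14 at 12 h and 5 at any time. Without a filter, 8 were called in wt MET at any time. The cause of these moves was not tested beyond their construction.

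Leaving out 1 library at a time gave 2 to 9 called genes in wt MET at 3 h, 4 to 10 at 6 h, 0 to 9 at 12 h and 4 to 11 at any time. It gave 5 to 12 in MET∆14 at 3 h, 4 to 9 at 6 h, 3 to 9 at 12 h and 7 to 14 at any time, 6 to 13 with a differing response, and 2 to 5 in the additive model. Without replicate 1 of wt MET at 0 h, 2 were called in wt MET at 3 h and 1 at 12 h. Leaving out the first 12 h replicate of wt MET gave 0 at 12 h. Without replicate 1 or 2 of MET∆14 at 12 h, 9 and 10 were called in wt MET at 6 h, 8 and 9 at 12 h, 10 and 11 at any time, and 13 and 13 differed in response. Without replicate 1 of that pair, 9 were called in MET∆14 at 12 h, and without replicate 2, 2 in the additive model. Of the other MET∆14 libraries, either of 3 h left out gave 5 at 3 h, the second of 6 h gave 4 at 6 h, and the first of 0 h gave 7 at any time. A left-out library leaves 1, which is taken to vary like the other conditions. The shares over all genes in these fits are not given here.

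Replicate numbers did not mark pairs (deviations of same-numbered libraries correlated at -0.159 to 0.035 within a line). With the replicate number as a block, 5, 5 and 4 genes were called in wt MET and 9, 7 and 4 in MET∆14 at 3, 6 and 12 h, 7 differed in response and 13 at 0 h. The block is set per line, so its 0 h difference is taken at the first replicate of each line. It is not the same comparison as without the block. Depth limits, among others, ZKSCAN7, with at most 19 counts in a library, ZSCAN5A, with at most 86, ZKSCAN3, with at most 104, and ZSCAN16, with at most 106. ZSCAN30 had 16 to 36 counts per library in wt MET.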
